A study of Mus musculus with 14 samples.

Results

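The integrins, laminins and other basement membrane genes of 4T1 cells, together with the proteins that tie integrins to the actin cytoskeleton, were followed across a set of arrays in which the deadenylase Cnot7 was raised or lowered. The genes were chosen by name, as a list of 35 genes with roles in the attachment of cells to the basement membrane, with earlier results of these data known, and the choice rule used no measured value. Of the 35, 34 were measured by a probe set whose annotation held that gene alone, out of 19938 genes measured in this way. Each of the 34 had 1 such probe set. Ptk2, which encodes focal adhesion kinase, had none and was not analysed here.

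4T1 is a cell line from a mammary tumor of a BALB/c mouse. Stable lines were made by lentiviral transduction and selection, and no label or method said whether the samples of a group came from separate transductions or cultures, so p-values measured only the spread between these samples. The 14 samples fell into 5 groups. The vector group (3 samples) carried a control vector with a non-coding stuffer fragment. The CNOT7_OE group (3 samples) carried human FLAG-tagged CNOT7 driven by a murine Pol2 promoter. Both were selected with blasticidin. The study's methods name different lentiviral backbones for the control and for CNOT7, so their comparison also holds that difference. The sh74 group (2 samples), the sh75 group (3 samples) and the shScramble group (3 samples) carried, after selection with puromycin, either of 2 short hairpins against mouse Cnot7 or a scrambled hairpin. The vector and hairpin controls therefore differed in construct and in drug, and each treatment was compared with its own control. Within a group, samples are numbered in the order of their records, and these replicate numbers have no further meaning. The sample names also hold a suffix number whose meaning is not stated. It is 5 in CNOT7_OE replicates 2 and 3, sh75 replicates 2 and 3 and shScramble replicate 3. It is 4 in CNOT7_OE replicate 1, sh75 replicate 1 and shScramble replicate 2, and neither in vector or sh74. It is 1 in vector replicate 1 and sh74 replicate 1, and 7 in vector replicate 3 and sh74 replicate 2. Samples of a group that share it may not be independent. All values are log2 intensities, on which a difference of 1 is a doubling, and levels of different genes on this scale were not compared with each other.

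Basement membranes are thin sheets of matrix on which epithelial cells rest. Laminins, each made of an alpha, a beta and a gamma chain, and networks of type IV collagen form the sheet, and nidogens, perlecan and agrin link or fill it. Cells hold on to the sheet through integrins, which pair an alpha with a beta chain and so set the ligand they bind, and through dystroglycan. Inside the cell talin, vinculin, paxillin and integrin-linked kinase connect integrins to actin and to signalling. In mammary epithelium the laminin whose alpha and beta chains are encoded by Lama3 and Lamb3 is bound by the integrin of Itga6 and Itgb4 at hemidesmosomes.

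The hairpins are shown because every knockdown comparison rests on them. The strand complementary to the Cnot7 transcript is written 5′ to 3′, with bases 2 to 8, which begin target recognition, in capitals.
shCnot7-74: tAAGTACTgcagaatagaagg
shCnot7-75: aACAAGTCtacattacaccgc
The study's oligo list names them shCnot7-74 and shCnot7-75, and the labels sh74 and sh75. They differ in these bases.

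Cnot7 itself checked the hairpin labels. Its level was 10.44, 10.33 and 10.20 in the shScramble samples, 8.71 and 9.33 in the sh74 samples, and 7.52, 8.51 and 8.07 in the sh75 samples. No hairpin sample reached a shScramble sample. Relative to shScramble it was lower by a log2 change of -1.31 (SE 0.29, limma adjusted p = 0.279) with sh74, which missed the threshold of 0.05, and by -2.29 (SE 0.26, limma adjusted p = 0.00911) with sh75, which passed it. The probe set was designed on mouse Cnot7 and read 10.64, 10.02 and 10.08 in CNOT7_OE against 10.07, 10.52 and 10.15 in vector, so it gave no check of the human transgene.

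The samples also differed in a way that the groups did not follow. A score was computed for each sample as the mean of 20 mesenchymal genes minus the mean of 29 measured epithelial genes, each gene centered over the samples, with no gene of the list described here among them. It ran from -0.94 in sh74 replicate 2 to 1.2 in sh74 replicate 1, so the 2 samples of sh74 held both extremes. The epithelial splicing factor Esrp1 was between 9.73 and 11.01 in 9 samples and between 5.21 and 6.50 in the other 5, namely CNOT7_OE replicate 3, sh74 replicate 1, sh75 replicates 2 and 3, and shScramble replicate 3. A shift in the share of cells in each state and a shift in RNA per cell cannot be told apart in such bulk samples. The filament gene Vim ran from 10.08 to 13.06. Array medians were 6.31 to 6.38 in all samples. Keratin 18, a luminal epithelial marker, was between 11.73 and 12.30 in every sample. Epcam, another epithelial marker, was not steady and ran from 5.98 in sh74 replicate 1 to 10.01 in sh74 replicate 2. The mean of 8 measured mammary epithelial genes, these 2 among them, ran from 8.71 to 9.49. The mean level of 11 immune markers was 5.36 to 5.63 and that of 12 endothelial markers 5.68 to 5.85, and 6 of the 11 and 10 of the 12 lay above a background limit of 4.89. Those at or below it in the mean of every group were Ptprc, Adgre1, Lyz2, Cd79a and Itgam among the immune markers, and Tek and Emcn among the endothelial ones. Of the 20 mesenchymal genes of the score 16 lay above it, and Cdh2, Snai2, Fap and Wnt5a did not. The limit was the 90th percentile of 1035 olfactory receptor probe sets, which stand for genes that mammary cells do not use.

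**Figure D1:**
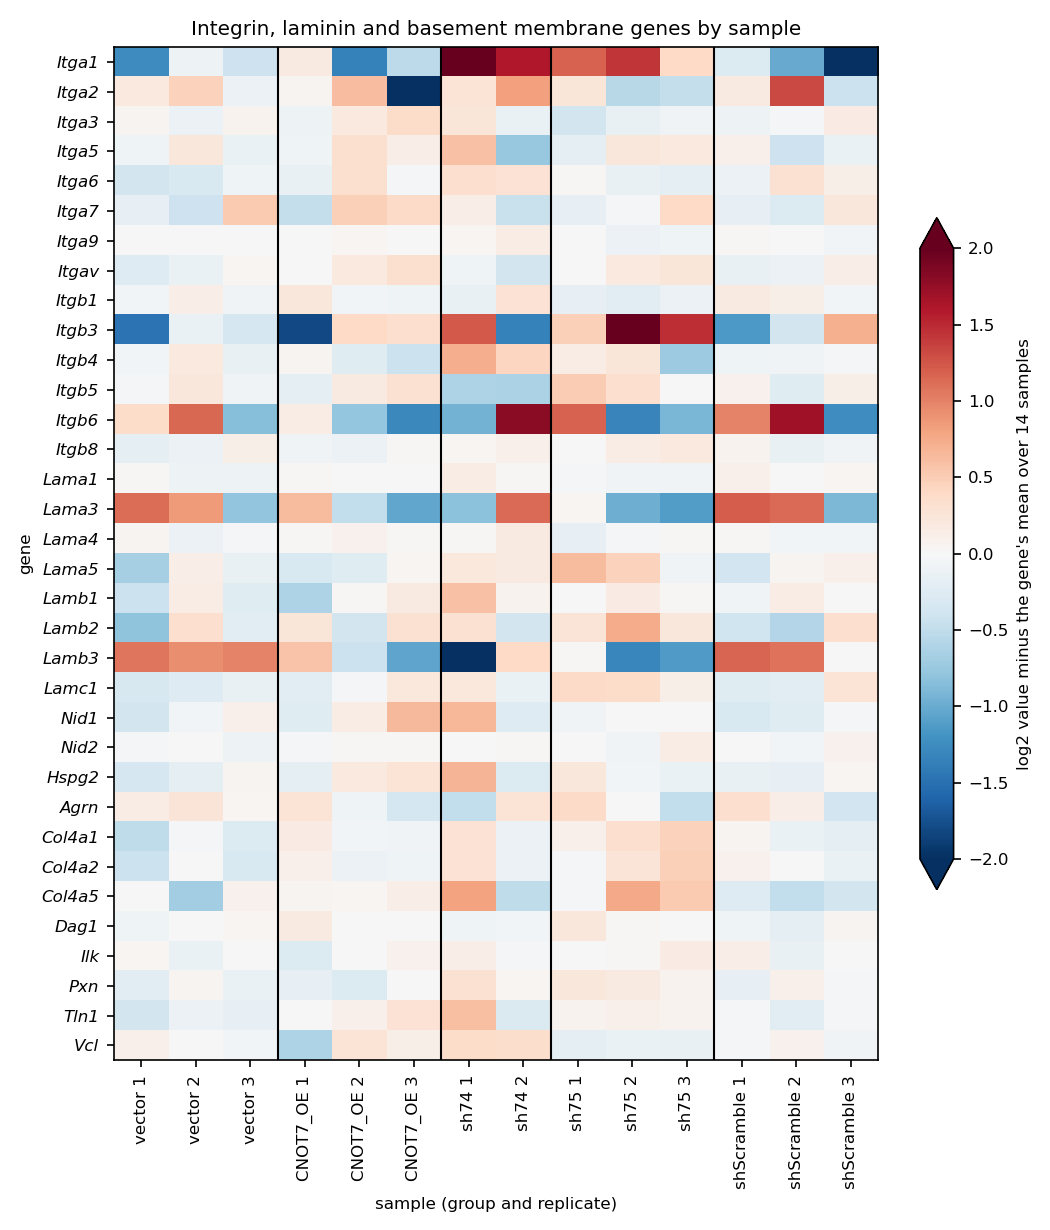
Log2 value of each of the 34 genes (rows) in each of the 14 samples (columns, grouped by treatment), minus the gene's mean over all samples; colors beyond 2 in either direction are drawn at the end of the scale. Itga1 stands above its mean in all 5 hairpin samples against Cnot7, whereas Itgb6 and Lama3 split the samples of most groups.

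Measured against all 21789 probe sets tested, the 34 genes were variable between samples of the same group: the residual SD of 28 of them lay above the median of all probe sets. That median includes dim probe sets, and Itga9, Nid2, Itgb8 and Lama4, at or near background, were below it. A comparison with expressed probe sets alone was not made. The 6 widest ranges over the 14 samples belonged to Itga1 (4.58), Itga2 (3.90), Itgb3 (3.79), Lamb3 (3.47), Itgb6 (3.12) and Lama3 (2.33). At the other end, Nid2, Lama1 and Itga9 moved by 0.24, 0.24 and 0.26. Lama4 was at or below the background limit in the mean of every group, and Itga9, Nid2 and Itgb8, with all values between 4.77 and 5.15, lay close to that limit, so for these a small range says little about the gene.

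With this spread, 0 of the 34 genes passed an adjusted p of 0.05 in limma's moderated tests in any of 6 contrasts. The share of all probe sets that passed was also small: 0.0% for CNOT7_OE against vector, 0.00918% for sh74 against shScramble, 0.0918% for sh75 against shScramble, 0.0184% for the mean of both hairpins against shScramble, 0.174% for sh74 against sh75, and 0.0% for the dose contrast, the CNOT7_OE change minus the mean knockdown change. A moderated F-test for any difference among the 5 groups also called 0 of the 34 (0.0597% of all probe sets), with the smallest adjusted p at Itga1 (0.151) and Itgb5 (0.261). At an unadjusted p under 0.05 the contrasts named 2, 4, 5, 3, 7 and 1 of the 34 genes in the same order, or 5.88%, 11.8%, 14.7%, 8.82%, 20.6% and 2.94%. Among all probe sets the corresponding shares were 2.58%, 7.33%, 8.26%, 7.3%, 8.93% and 3.49%. The F-test put 6 of the 34 (17.6%) and 9.24% of all probe sets under this p. Leaving out 1 sample moved these counts: that of CNOT7_OE was 0 without vector replicate 1, CNOT7_OE replicate 2 or CNOT7_OE replicate 3, and 4 without CNOT7_OE replicate 1. For sh74 it was 2 without shScramble replicate 1 or 2 and 10 without sh74 replicate 2, and for both hairpins 1 without sh74 replicate 1 and 11 without sh74 replicate 2. For sh75 it was 1 without sh75 replicate 2, 2 without shScramble replicate 2 and 8 without shScramble replicate 3. The values that follow are therefore descriptions of these samples, given for the 5 genes with the smallest p in each contrast and for the widest ranges.

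Of the integrin alpha chains, Itga1, which pairs with Itgb1 to bind collagens and laminins, differed most between knockdown and control. It read 7.55, 6.82 and 5.61 in shScramble, 10.19 and 9.43 in sh74, and 9.01, 9.25 and 8.23 in sh75. All 5 hairpin samples against Cnot7 lay above all 3 shScramble samples, and above the vector samples (6.57, 7.72 and 7.41) and the CNOT7_OE samples (8.0, 6.47 and 7.31) as well. The mean of sh74 was 8.86-fold that of shScramble (log2 change 3.15, SE 0.59, limma adjusted p = 0.179), and that of sh75 was 4.50-fold (2.17, SE 0.53, limma adjusted p = 0.269). Both hairpins together gave a log2 change of 2.66 (SE 0.48, unadjusted p = 0.000165, limma adjusted p = 0.221). A two-sided exact permutation test of the 5 against the 3 samples gave p = 0.0179, the smallest of 56 arrangements. It was run for the 5 genes with the smallest p in this contrast, is not adjusted for that choice, and pools both hairpins. Both hairpin comparisons share the shScramble samples. Separation of the 5 from the 3 samples was seen in 3.93% of all probe sets and in this 1 gene of the 34.

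The means of Itga1 were 7.26 in CNOT7_OE and 7.23 in vector, and the dose contrast was -2.63 (SE 0.71, unadjusted p = 0.00352, limma adjusted p = 1.0). No relation of Itga1 to the mesenchymal minus epithelial score was detected over the 14 samples (Pearson r = 0.09, permutation p = 0.766; Spearman rho = 0.06, permutation p = 0.844). With the score added to the fit its changes were 3.26 (SE 0.59, limma adjusted p = 0.128) for sh74 and 2.33 (SE 0.54, limma adjusted p = 0.220) for sh75. In the GRCm38.p6 annotation Itga1 spans chr13:114958079-115101964 and contains the gene Pelo at chr13:115088355-115090158. The probe set of Pelo, an mRNA surveillance factor, read between 6.28 and 6.63 in all samples, and whether its transcripts reach the Itga1 probes was not tested.

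**Figure D2:**
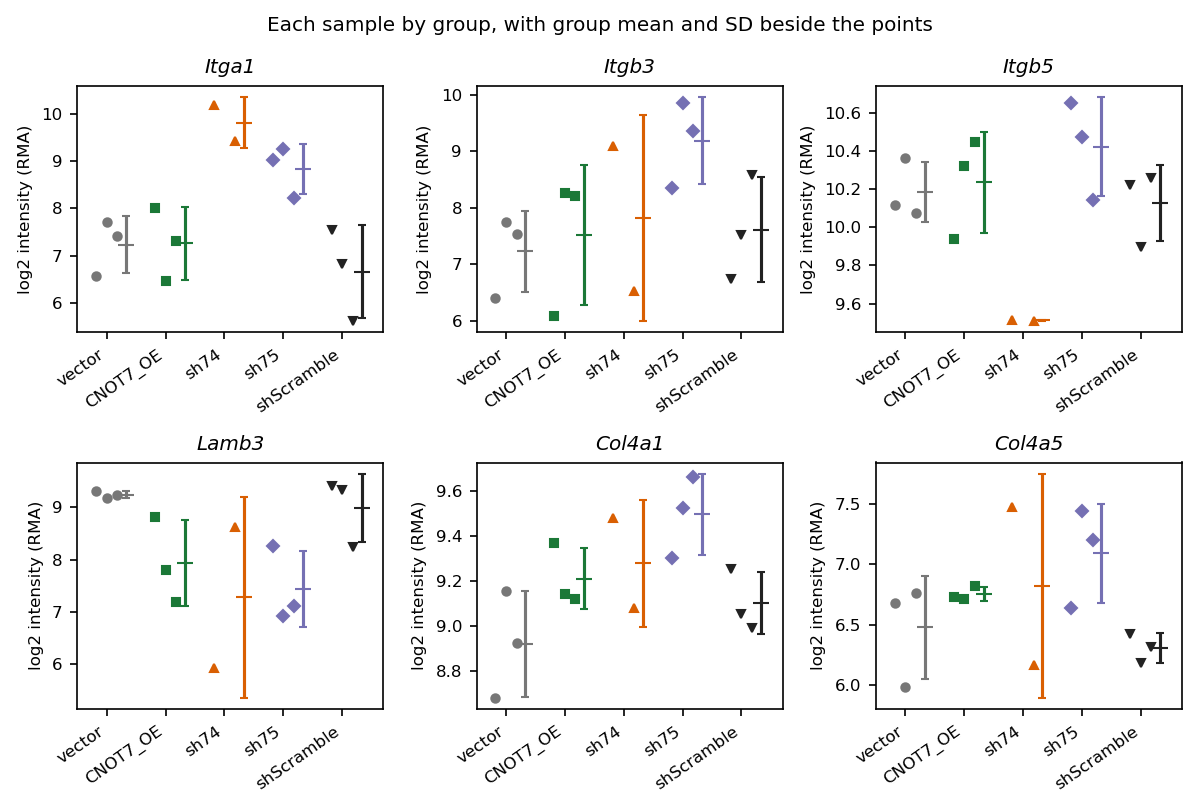
Log2 intensity of 6 genes in each sample (points), by group, with the group mean and SD (n = 3, or 2 for sh74) beside the points. Itga1 is higher in every sh74 and sh75 sample than in any other sample, Itgb5 is lowest in both sh74 samples, and the sh74 samples lie far apart for Itgb3, Lamb3 and Col4a5.

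Itga2, which encodes the other collagen-binding alpha chain of the list, showed no such separation. It read 10.57, 11.72 and 9.97 in shScramble, 10.68 and 11.22 in sh74, 10.63, 9.84 and 9.92 in sh75, and 10.59, 10.87 and 10.28 in vector. Most of its range came from 1 sample: CNOT7_OE replicate 3 read 7.82, against 10.45 and 11.02 in the other CNOT7_OE samples.

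Itga6, a laminin-binding alpha chain, read 10.06, 10.12 and 10.34 in vector and 10.29, 10.75 and 10.39 in CNOT7_OE, a difference of 0.30 (SE 0.13, limma adjusted p = 1.0) with overlap, which was 0.17 without CNOT7_OE replicate 2. It was 10.77 and 10.71 in sh74, above the 10.45, 10.27 and 10.25 of sh75, although shScramble read 10.31, 10.73 and 10.55. Itgav, the alpha chain shared by several receptors for RGD-containing matrix proteins, was 10.62, 10.76 and 10.93 in vector and 10.90, 11.08 and 11.20 in CNOT7_OE (0.29, SE 0.12, limma adjusted p = 1.0). Its sh74 values of 10.80 and 10.51 lay below the sh75 values of 10.88, 11.09 and 11.13, and the shScramble values of 10.74, 10.77 and 11.01 lay among them. Itga9, whose product binds tenascin and other matrix ligands, was 4.94 to 4.95 in vector, 4.93 to 4.98 in CNOT7_OE, 4.98 and 5.08 in sh74, 4.83 to 4.94 in sh75 and 4.89 to 4.96 in shScramble, so its differences lay near the background limit.

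Among the beta chains, Itgb5, which pairs with Itgav, had the smallest p of the 34 genes for a difference between the 2 hairpins. Both sh74 samples read 9.51, below the 10.65, 10.47 and 10.14 of sh75 and below the 10.22, 9.90 and 10.26 of shScramble. In the over-expression experiment it was 10.11, 10.36 and 10.07 in vector and 9.94, 10.32 and 10.45 in CNOT7_OE, so the sh74 samples were the lowest of the 14. The difference between sh74 and sh75 was -0.91 (SE 0.18, unadjusted p = 0.000355, limma adjusted p = 0.0954), and that between sh74 and shScramble was -0.61 (SE 0.18, limma adjusted p = 0.477). The sh75 mean was 0.30 above that of shScramble (SE 0.16, limma adjusted p = 0.677).

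Itgb4, the hemidesmosomal partner of Itga6, was also apart in sh74. It read 9.91 and 9.62 there, against 9.11, 9.13 and 9.15 in shScramble, 9.34, 9.44 and 8.46 in sh75, 9.14, 9.39 and 9.05 in vector and 9.25, 8.95 and 8.76 in CNOT7_OE. Neither the difference from shScramble (0.64, SE 0.25, limma adjusted p = 0.634) nor that from sh75 (0.69, SE 0.25, limma adjusted p = 0.426) passed, and the latter was 0.38 without sh75 replicate 3, the lowest of the 14 samples. In all, the samples of sh74 and sh75 did not overlap in 11 of the 34 genes (32.4%), against 22.5% of all probe sets, and 7 of the 11 encode integrin chains, as do 14 of the 34 measured genes: Itga1, Itga2, Itga6, Itga9 and Itgb4 were higher in sh74, and Itgav and Itgb5 were higher in sh75. The rest were Lama1, Lama4 and Vcl, higher in sh74, and Dag1, higher in sh75.

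Itgb3, the beta chain of the vitronectin receptor, had wide ranges inside most groups. It read 6.40, 7.74 and 7.54 in vector, 6.08, 8.27 and 8.21 in CNOT7_OE, 9.11 and 6.52 in sh74, 8.36, 9.87 and 9.36 in sh75, and 6.73, 7.51 and 8.59 in shScramble. The sh75 samples overlapped those of sh74 and shScramble and lay above all vector and CNOT7_OE samples, and the other groups overlapped each other. The sh75 mean was 1.59 above that of shScramble (SE 0.79, limma adjusted p = 0.652). Itgb6, an epithelial partner of Itgav that activates latent TGF-beta, read 5.92, 6.72 and 4.71 in vector, 5.71, 4.78 and 4.27 in CNOT7_OE, 4.62 and 7.36 in sh74, 6.75, 4.24 and 4.66 in sh75, and 6.55, 7.25 and 4.32 in shScramble. Every group held a sample above 5.7 and a sample below 4.8. The values below 4.8 lay under the background limit of 4.89, so differences among them say little. Itgb1, the beta chain shared by most matrix-binding integrins, stayed between 11.78 and 12.29, Itga3, its laminin-binding partner, between 11.83 and 12.57, Itga5, which encodes the alpha chain of the fibronectin receptor, between 7.34 and 8.68, and Itga7, another laminin-binding alpha chain, between 6.73 and 7.73.

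Lamb3, the beta chain of the hemidesmosomal laminin, was lower on average in each of the perturbed groups than in its own control. It read 9.30, 9.17 and 9.23 in vector and 8.81, 7.81 and 7.18 in CNOT7_OE, which did not overlap. It read 9.40, 9.32 and 8.23 in shScramble, 5.92 and 8.63 in sh74, and 8.27, 6.93 and 7.11 in sh75, which overlapped. The change was -1.30 (SE 0.65, limma adjusted p = 1.0) for CNOT7_OE, -1.71 (SE 0.72, limma adjusted p = 0.659) for sh74 and -1.55 (SE 0.65, limma adjusted p = 0.570) for sh75. The sh74 value depended on the sample kept, at -0.36 without sh74 replicate 1 and -3.06 without sh74 replicate 2. For both hairpins together it was -1.63 (SE 0.58, unadjusted p = 0.0172, limma adjusted p = 0.589), or -0.95 without sh74 replicate 1 (limma adjusted p = 1.0), and the exact permutation test of 5 against 3 samples gave p = 0.0714. Lamb3 followed the mesenchymal minus epithelial score, as given below, and the group means of that score were -0.21 in vector, 0.09 in CNOT7_OE, 0.13 in sh74, 0.31 in sh75 and -0.29 in shScramble. With the score in the fit the changes of Lamb3 were -1.01 (SE 0.23, limma adjusted p = 1.0) for CNOT7_OE, -1.29 (SE 0.26, limma adjusted p = 0.170) for sh74 and -0.95 (SE 0.24, limma adjusted p = 0.259) for sh75.

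Lama3, the alpha chain of the same laminin, had lower means in the same groups but overlapped everywhere. It read 8.07, 7.81 and 6.18 in vector, 7.60, 6.47 and 5.93 in CNOT7_OE, 6.15 and 8.10 in sh74, 7.0, 5.99 and 5.84 in sh75, and 8.18, 8.10 and 6.06 in shScramble. Lamc1, the gamma chain of most laminins, read 9.99, 10.02 and 10.50 in shScramble and 10.61, 10.59 and 10.34 in sh75 (0.35, SE 0.15, limma adjusted p = 0.600), with overlap, and 10.44 and 10.10 in sh74. It was 9.91, 9.97 and 10.08 in vector and 10.01, 10.21 and 10.44 in CNOT7_OE. Lamb1, the beta chain of several laminins, ranged from 10.37 to 11.56, Lamb2 from 6.82 to 8.38, and Lama5, a widespread laminin alpha chain, from 9.37 to 10.66. Lama1 stayed between 5.57 and 5.81.

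**Figure D3:**
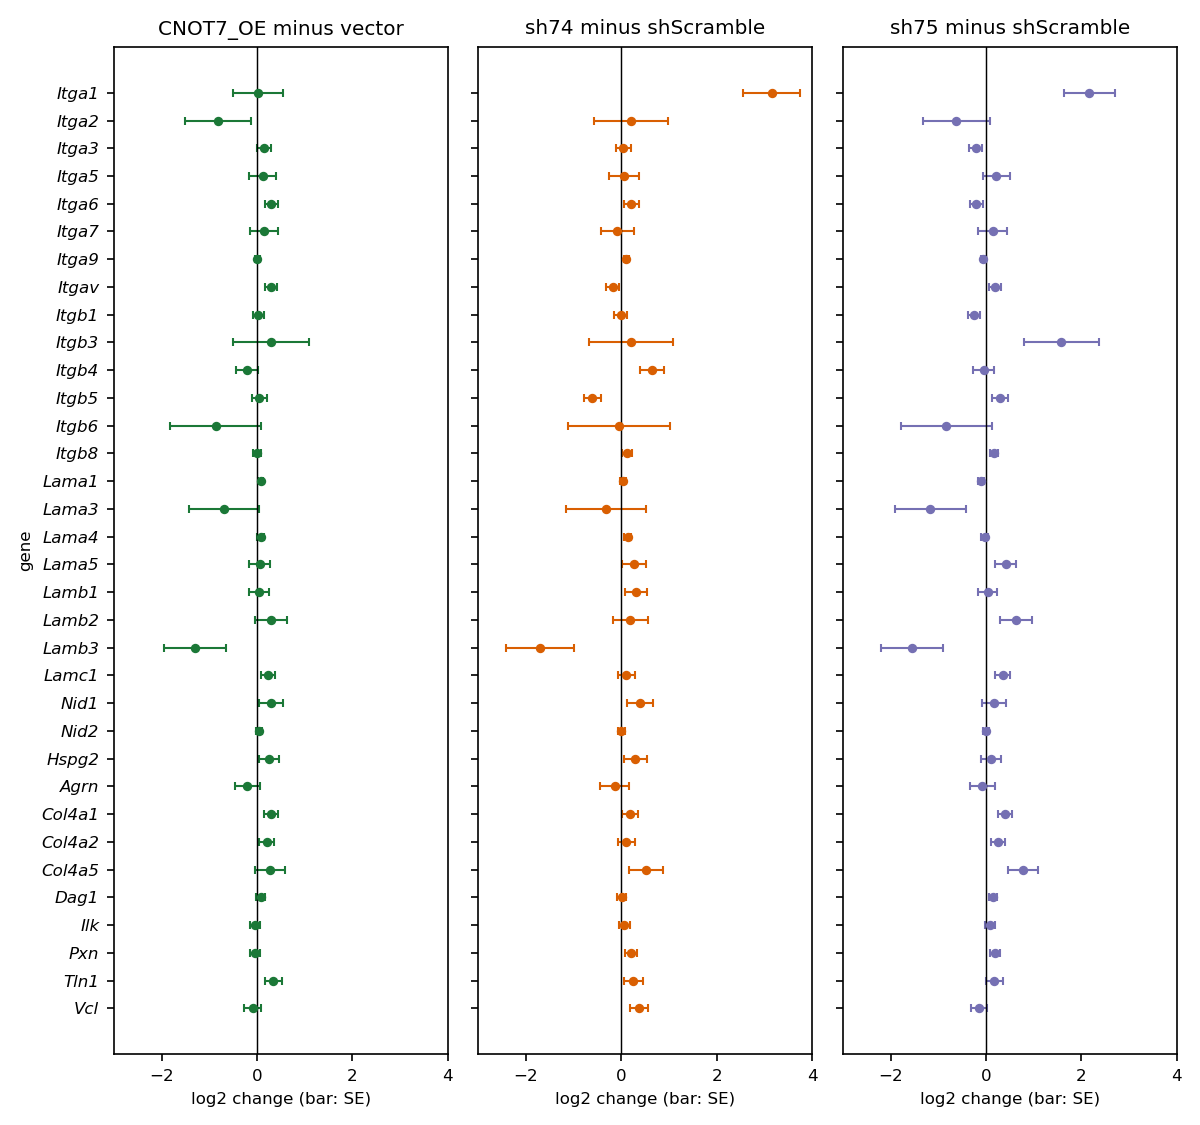
Log2 change of each of the 34 genes with its standard error from limma, for CNOT7_OE against vector, sh74 against shScramble and sh75 against shScramble; the vertical line marks no change. Itga1 lies to the right of the line with both hairpins and on it with CNOT7_OE, whereas Lamb3 lies to the left in all 3 panels, and no change passed an adjusted p of 0.05.

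Type IV collagen was represented by 3 chains. Col4a5 read 6.43, 6.18 and 6.32 in shScramble and 6.64, 7.44 and 7.2 in sh75, which did not overlap (0.78, SE 0.31, limma adjusted p = 0.540). In sh74 it was 7.48 and 6.17, on either side of shScramble. It was 6.68, 5.99 and 6.77 in vector and 6.73, 6.72 and 6.82 in CNOT7_OE.

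Col4a1 read 9.26, 9.06 and 8.99 in shScramble, 9.30, 9.53 and 9.66 in sh75, and 9.48 and 9.08 in sh74. The sh75 samples lay above shScramble (0.39, SE 0.15, limma adjusted p = 0.505). It read 8.68, 9.15 and 8.92 in vector and 9.37, 9.14 and 9.12 in CNOT7_OE (0.29, SE 0.15, limma adjusted p = 1.0), with overlap, and this difference was 0.17 without vector replicate 1. Samples of sh75 and shScramble were separate in 7 of the 34 genes (20.6%), against 13.5% of all probe sets. These were Itga1, Col4a1, Col4a5 and Tln1, higher with sh75, and Itgb1, Lama1 and Vcl, lower. For sh74 and shScramble the count was also 7 (20.6%), against 22.0% of all probe sets, and for CNOT7_OE and vector it was 2, Lamb3 and Tln1 (5.88%), against 7.72%.

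Across the 14 samples Col4a1 and Col4a2, whose products form the common collagen IV heterotrimer, moved together. Pearson r was 0.96 (permutation p = 1e-05, the smallest that the permutations can give) and Spearman rho 0.93 (permutation p = 2e-05). Col4a2 had the highest r with Col4a1 of all 21788 other probe sets. The p adjusted over those probe sets was 0.145. With a smallest p of 1e-05, 1 probe set alone cannot pass an adjustment over 21788, so this value cannot decide about the pair. The r was 0.92 without the 2 samples farthest from the median of Col4a1. Both genes had the lowest value in vector replicate 1 (8.68 and 8.48) and the highest in sh75 replicate 3 (9.66 and 9.38). The comparison was made for 9 pairs of chains that form a heteromer or were seen to vary alike, chosen after their values were seen.

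Other partner chains were looser. Their adjusted p also depended on how many probe sets followed the first gene, so it was not compared between pairs. Lama3 and Lamb3 gave r = 0.76 (permutation p = 0.00206, adjusted over all probe sets p = 0.0792) and rho = 0.81 (permutation p = 0.00061, adjusted p = 0.0498). Itgb6 and Lama3, which are no partners, gave r = 0.90 (permutation p = 0.00014, adjusted p = 0.0233) and rho = 0.86 (permutation p = 0.00011, adjusted p = 0.0209). Itgav was positively related to Itgb3 (r = 0.66) and negatively to Itgb6 (r = -0.79), with adjusted permutation p of 0.109 and 0.0542. For Itga6 with Itgb4 r was 0.32, for Itgb5 with Itgav 0.55, for Lamb1 with Lamc1 0.49 and for Itga1 with Itgb1 -0.10, with adjusted permutation p between 0.384 and 0.936. Lama3 with Itgb6, and each of these with Lamb3, share the relation to the score described next.

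**Figure D4:**
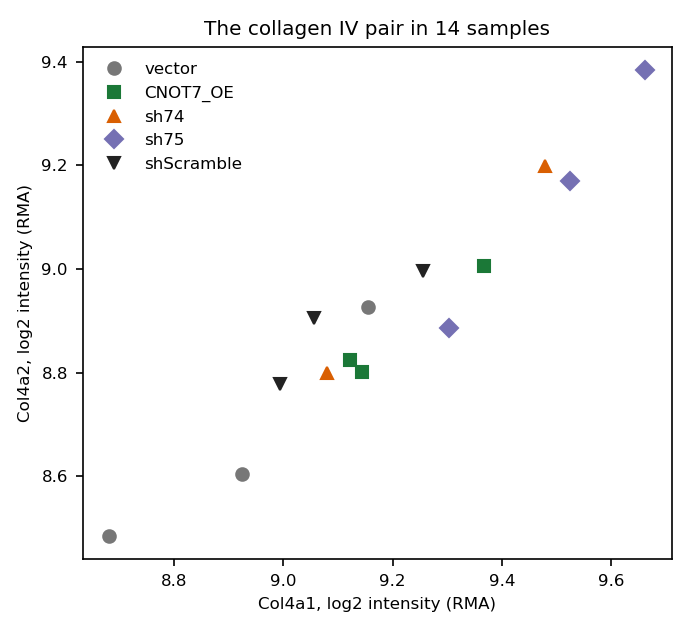
Log2 intensity of Col4a2 against that of Col4a1 in the 14 samples, marked by group. The points lie close to a line (Pearson r = 0.96), with vector replicate 1 lowest and sh75 replicate 3 highest for both genes.

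Col4a1 and Col4a2 lie head to head, and the start sites used for their windows, in RefSeq on GRCm38.p6, are 21 bases apart (chr8:11312826 and chr8:11312805). The annotated span of Col4a1 runs on to chr8:11312889, so its start site used here lies inside that span. Windows from 250 bases before to 50 after each start site therefore overlap by 78 bases. They are shown because the genes moved together, each in the direction of its own transcript, with CCAAT and GGGCGG on either strand in capitals.
Col4a1 (chr8:11312777-11313076, minus strand): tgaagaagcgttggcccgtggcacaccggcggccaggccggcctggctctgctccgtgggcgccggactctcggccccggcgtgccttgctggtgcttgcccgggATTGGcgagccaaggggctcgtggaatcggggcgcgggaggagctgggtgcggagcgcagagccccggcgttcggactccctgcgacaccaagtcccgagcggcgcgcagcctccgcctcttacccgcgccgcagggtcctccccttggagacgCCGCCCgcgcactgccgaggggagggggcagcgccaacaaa
Col4a2 (chr8:11312555-11312854, plus strand): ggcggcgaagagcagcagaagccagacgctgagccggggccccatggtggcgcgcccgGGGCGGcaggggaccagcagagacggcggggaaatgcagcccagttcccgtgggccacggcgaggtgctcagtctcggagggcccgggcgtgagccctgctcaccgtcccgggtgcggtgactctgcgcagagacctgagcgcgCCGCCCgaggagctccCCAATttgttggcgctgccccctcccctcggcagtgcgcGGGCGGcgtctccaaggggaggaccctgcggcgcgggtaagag

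Windows of this kind matched 24 of the 34 genes, 30 windows in all, and 8 short motifs were searched in them on both strands. CCAAT was in 10 of the 30 windows and in 37.4% of all 32851 windows. The 10 came from 9 of the 24 genes, among them Col4a1, Col4a2 and Col4a5. GGGCGG was in 20 of the 30 windows, from 17 genes, and in 35.7% of all windows. CACCTG, the E-box bound by ZEB and SNAIL repressors of epithelial genes, was in 7 of the 30 windows and in 20.2% of all windows. The 7 came from 7 genes (Itga3, Itga9, Itgb5, Itgb6, Itgb8, Lama5 and Lamb3). The other motifs were CAGGTA (4 of the 30 windows, 12% of all windows), TGANTCA (2, 7.81%), TATAAA (0, 13.6%), GGAATG (4, 14.7%) and CAGACA (6, 21.0%). For each of these, every window with a match belonged to a different gene. A match is a string of letters and not a measured site. Windows of Lamb3 and Itgb6, which had both an E-box match and a Pearson relation to the score, are shown with CACCTG in capitals. Both lie at a start site inside the annotated span of the gene.
Lamb3 (chr1:193301993-193302292, plus strand): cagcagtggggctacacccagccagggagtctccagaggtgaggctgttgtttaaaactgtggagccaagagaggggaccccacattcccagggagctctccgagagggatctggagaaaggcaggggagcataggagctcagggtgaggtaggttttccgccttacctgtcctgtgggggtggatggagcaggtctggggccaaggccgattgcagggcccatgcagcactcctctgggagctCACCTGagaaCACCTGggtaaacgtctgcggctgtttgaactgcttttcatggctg
Itgb6 (chr2:60673644-60673943, minus strand): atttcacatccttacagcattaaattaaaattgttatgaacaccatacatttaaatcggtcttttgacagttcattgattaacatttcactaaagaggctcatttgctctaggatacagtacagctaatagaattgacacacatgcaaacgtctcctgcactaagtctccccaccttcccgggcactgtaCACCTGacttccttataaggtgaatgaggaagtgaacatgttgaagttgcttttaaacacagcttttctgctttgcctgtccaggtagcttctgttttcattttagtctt

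The spread inside groups was then set against the mesenchymal minus epithelial score. Over the 14 samples 7 of the 34 genes were related to it at an adjusted permutation p under 0.05, 5 negatively and 2 positively, against 2.13% of all probe sets for negative and 2.35% for positive relations. The permutations treated the 14 samples as independent. Samples that share a suffix number, also across groups, may not be, so these p-values may be too small. The epithelial integrin chain Itgb6 had the closest relation, with r = -0.92 (permutation p = 1e-05, adjusted p = 0.00559) and rho = -0.92 (permutation p = 1e-05, adjusted p = 0.00660). The lowest Itgb6 value of every group lay under the background limit of 4.89, so the relation partly contrasts samples at background with others. Lama3 gave r = -0.89 (permutation p = 0.00023, adjusted p = 0.0161) and rho = -0.85 (permutation p = 0.00025, adjusted p = 0.0207). Agrn, the proteoglycan that binds laminin to dystroglycan, gave r = -0.89 (permutation p = 0.00011, adjusted p = 0.0116) and rho = -0.79 (permutation p = 0.00123, adjusted p = 0.0442). It was between 9.09 and 9.96 in all samples, so its relation was close but its range narrow. Itgb1 gave r = -0.79 (permutation p = 0.0013, adjusted p = 0.0374) and rho = -0.80 (permutation p = 0.00103, adjusted p = 0.0398).

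Lamb3 gave r = -0.82 (permutation p = 0.00038, adjusted p = 0.0196), but its rho of -0.78 (permutation p = 0.00169, adjusted p = 0.0525) missed the threshold. The positive relations were those of Col4a5, with r = 0.78 (permutation p = 0.00104, adjusted p = 0.0335) and rho = 0.84 (permutation p = 0.00035, adjusted p = 0.0238), and of Nid1, the nidogen that links laminin to collagen IV, with r = 0.75 (permutation p = 0.0008, adjusted p = 0.0284) and rho = 0.75 (permutation p = 0.00294, adjusted p = 0.0696). Itga7 (r = 0.75) and Itgb3 (r = 0.76) came next, with adjusted permutation p of 0.0577 and 0.0520. The samples farthest from the median score were both sh74 samples. Without them r was -0.94 for Itgb6 and -0.85 for Agrn, whose adjusted permutation p of 0.0246 and 0.0467 still passed, and -0.89 for Lama3, -0.79 for Lamb3, -0.74 for Itgb1, 0.67 for Col4a5 and 0.63 for Nid1, whose adjusted permutation p of 0.0587 to 0.194 did not.

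**Figure D5:**
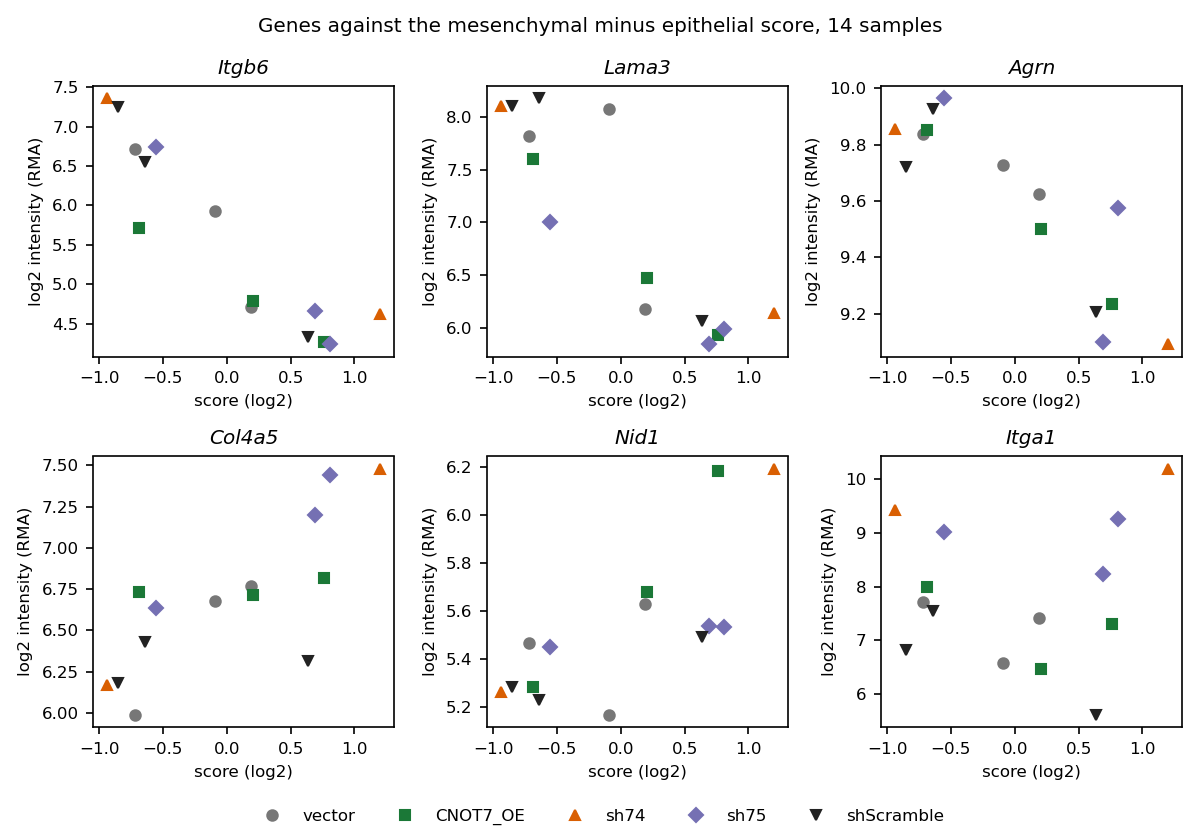
Log2 intensity of 6 genes against the mesenchymal minus epithelial score (mean centered log2 value of mesenchymal genes minus that of epithelial genes) in the 14 samples, marked by group. Itgb6, Lama3 and Agrn go down with the score (r between -0.92 and -0.89), Col4a5 and Nid1 go up (0.78 and 0.75), and Itga1 shows no clear relation (0.09), with both sh74 samples high at opposite ends of the score.

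The relation was also fitted inside the groups, as a common slope on the score with the 5 groups in the limma fit, where 11 of the 34 genes and 1135 of the 21789 probe sets passed. The slope was -1.50 per unit of the score for Itgb6 (limma adjusted p = 0.000798), -0.99 for Lamb3 (limma adjusted p = 0.00193), -1.09 for Lama3 (limma adjusted p = 0.00686), -0.39 for Agrn (limma adjusted p = 0.00765) and -0.16 for Itgb1 (limma adjusted p = 0.0296). It was positive for Itgb3 (1.06), Col4a5 (0.40), Itga7 (0.39), Nid1 (0.31), Itga3 (0.21) and Itgav (0.16), with adjusted p between 0.00622 and 0.0474. Among these, the partner chains of Itgav went opposite ways, Itgb6 down and Itgb3 up with the score. The slopes of Itga1, Itgb5, Col4a1 and Col4a2 were -0.26, 0.03, 0.03 and 0.05 per unit and did not pass (limma adjusted p from 0.700 to 0.918).

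The 4 measured genes that link integrins to actin each ranged over less than 1 log2 unit. Pxn, the adaptor paxillin, read 10.22, 10.50 and 10.36 in shScramble, 10.69 and 10.43 in sh74, 10.62, 10.57 and 10.46 in sh75, 10.18, 10.44 and 10.25 in vector and 10.23, 10.12 and 10.40 in CNOT7_OE. Its mean knockdown change was 0.19 (SE 0.10, limma adjusted p = 0.708), with overlap, and was 0.12 without shScramble replicate 1 and 0.13 without sh74 replicate 1. Tln1, talin, which activates integrins, was 9.29, 9.54 and 9.49 in vector and 9.66, 9.76 and 9.94 in CNOT7_OE, which did not overlap (0.35, SE 0.18, limma adjusted p = 1.0).

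In the hairpin experiment Tln1 was 9.61, 9.44 and 9.63 in shScramble, 9.73, 9.75 and 9.73 in sh75, and 10.26 and 9.36 in sh74. Vcl, vinculin, was 10.64, 10.76 and 10.60 in shScramble, 11.04 and 11.03 in sh74, 10.49, 10.54 and 10.54 in sh75, 10.78, 10.67 and 10.62 in vector and 10.05, 10.95 and 10.79 in CNOT7_OE. It was thus above shScramble in both sh74 samples and below it in all 3 sh75 samples, with a difference between the hairpins of 0.51 (SE 0.20, limma adjusted p = 0.463). That difference passed when CNOT7_OE replicate 1 was left out of the shared estimate of spread (limma adjusted p = 0.0358), and the sh74 change of Tln1, 0.25 (SE 0.20, limma adjusted p = 0.865), was 0.70 without sh74 replicate 2 (limma adjusted p = 0.0482). That value rests on 1 sh74 sample, replicate 1, which is assumed to vary like the other groups. Ilk stayed between 10.31 and 10.76 and the dystroglycan gene Dag1 between 10.53 and 10.95. Hspg2, perlecan, ranged from 8.54 to 9.55, with the highest value in sh74 replicate 1.

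Read as a list, the 34 genes had median changes of 0.06 for CNOT7_OE (25 higher, 9 lower), 0.11 for sh74 (25 higher, 9 lower), 0.13 for sh75 (21 higher, 13 lower) and 0.10 for the mean of both hairpins (25 higher, 9 lower), against medians of all probe sets between 0.00 and 0.01. For sh74 against sh75 the median was 0.00, with 17 higher and 17 lower. These medians depended on single samples and on the score. That of CNOT7_OE was 0.01 without vector replicate 1, 0.04 without CNOT7_OE replicate 3 and 0.13 without CNOT7_OE replicate 1. That of sh74 was -0.01 without sh74 replicate 1 and 0.24 without sh74 replicate 2, and that of both hairpins 0.05 without sh74 replicate 1. That of sh75 was 0.08 without shScramble replicate 2 and 0.03 with the score in the fit.

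The same comparisons were read for other genes of the pathway, in lists of the remaining integrins (14 measured), other basement membrane genes (23), collagen and matrix processing enzymes (13), other matrix receptors (19) and other adhesion plaque proteins (35). In each list, 0 genes passed an adjusted p of 0.05 in either direction in any of the 6 contrasts. The remaining integrin with the smallest p in the hairpin contrasts was Itga8, an Itgb1 partner, with log2 changes of 1.40 for sh74 (SE 0.62, limma adjusted p = 0.673) and 1.76 for sh75 (SE 0.55, limma adjusted p = 0.409), and a dose contrast of -2.38 (SE 0.74, limma adjusted p = 1.0). Sparc, which encodes a collagen-binding matrix protein, was 2.43 higher with sh75 (SE 1.13, limma adjusted p = 0.617). Plod2, a lysyl hydroxylase of collagen, differed by -1.05 with sh74 (SE 0.23, limma adjusted p = 0.285) and by -0.91 between sh74 and sh75 (SE 0.23, limma adjusted p = 0.210). The actin regulator Vasp differed between the hairpins by -0.58 (SE 0.11, limma adjusted p = 0.0814), and Zyx, zyxin, was 0.80 higher with sh75 than with shScramble (SE 0.18, limma adjusted p = 0.204).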

How the data were processed

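RNA of 14 samples in 5 groups was hybridised by the authors to single-color Affymetrix mouse whole-transcript gene arrays. Per the labels, RMA (R package oligo, versions not given in the sources used here) was run on the scans, which corrects background, equalizes array distributions and summarizes each probe set, and log2 values were deposited. These were used as deposited. RMA's equalization hides any change shared by most genes.

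From 35556 deposited probe sets, the 21789 with exactly 1 annotated gene symbol were tested, and the 1621 with several and 12146 without any were not. All 34 members matched RefSeq by Entrez identifier. A gene with several probe sets was represented by that with the highest mean.

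Groups came from the labels. Contrasts were fitted over all 14 samples with limma 3.58.1 in R 4.3.3 (lmFit, eBayes, 9 residual and 2.09 prior degrees of freedom), two-sided, adjusted by Benjamini-Hochberg over the 21789 probe sets. The limma step and the correlation step were tested on simulated data. Correlations used 100000 permutations of the samples (Python 3.11.15, numpy 2.4.6, scipy 1.17.1), adjusted over all probe sets, and no gap between sorted scores exceeded 21.4% of their range. Each group held 2 or 3 arrays, and array values carry no read depth.

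The members, lists and alternatives were chosen with earlier results of these data known. Per contrast, the members called or, with fewer than 5 calls, the 5 with the smallest p were named, besides the 6 widest ranges, and 2 genes per pathway list at most. Other members and probe sets are named by range or count. The alternatives were array centering, quantile normalization, leaving out dim probe sets, testing all probe sets, averaging a gene's probe sets, a trended robust prior, fits of the compared groups alone, the methods' t-test, the label's suffix number as a block, the score as a covariate and leaving out each sample. Promoter windows and gene positions are from RefSeq on GRCm38.p6, and hairpin sequences from the study's oligo list.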

Additional observations from a re-analysis of the deposited data

How the results depend on the processing

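The counts of members called stayed at 0 under every setting run, except when a sample was left out. For sh74 against shScramble the count was 0 to 1 over these fits: without sh74 replicate 2, Tln1 passed (0.70, SE 0.13, limma adjusted p = 0.0482; with all samples 0.25, SE 0.20, adjusted p = 0.865), and 122 of all probe sets passed instead of 2. That fit holds 1 sh74 sample, replicate 1, the highest in the score, which is assumed to vary like the other groups. For sh74 against sh75 it was 0 to 1: without CNOT7_OE replicate 1, whose Vcl was lowest, Vcl passed (0.51, SE 0.07, limma adjusted p = 0.0358; with all samples SE 0.20, adjusted p = 0.463). The members related to the score numbered 2 without the 2 samples farthest from the median score and 11 as a limma slope with the groups in the fit, against 7. No named change turned its direction: Itga1 ranged from 2.14 to 3.10 for both hairpins (limma adjusted p from 0.0667 to 0.716) and Itgb5 from -1.05 to -0.79 for sh74 against sh75 (limma adjusted p from 0.0646 to 0.733). Lamb3 for sh74 was -3.06 without sh74 replicate 2 and -0.36 without sh74 replicate 1.

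The methods' t-test put 1, 4, 6 and 3 members under an unadjusted p of 0.05 for CNOT7_OE, sh74, sh75 and sh74 against sh75, and 0 after Benjamini-Hochberg adjustment. Whether the suffix number in the sample names pairs the samples was not settled. Deviations of 13 same-numbered pairs correlated between -0.30 and 0.59, 5 of them over 0.1, and pairs with different numbers were not examined. Samples numbered 4 had a mesenchymal minus epithelial score of -0.69 (CNOT7_OE), -0.55 (sh75) and -0.85 (shScramble). Those numbered 5 had 0.20 and 0.76 (CNOT7_OE), 0.81 and 0.69 (sh75) and 0.64 (shScramble). With the suffix number as a replicate block, which only sh75 against shScramble allowed, 0 members and 2 probe sets passed, against 20 probe sets without it.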
